A study of Mus musculus with 18 samples.

Results

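The imprinted genes of the Peg3 and Snrpn domains on mouse chromosome 7 were followed across embryos and cell classes. They comprised 9 genes, chosen by symbol from the 31053 mouse genes listed in the files: Peg3, Usp29 and Zim1 of the Peg3 domain, and Snrpn, Ndn, Magel2, Mkrn3, Peg12 and Ube3a of the Snrpn domain. Their transcripts were counted as unique molecular identifiers (UMIs) over barcodes with 1500 or more mouse UMIs, by genotype and by cell class. All 9 genes were detected in every library and all 9 passed the filter on low counts in the whole embryo fit, in which 18724 genes were tested.

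An imprinted gene is expressed mainly from the copy inherited from one parent. In both domains a control region is methylated on the maternal copy, and Dnmt1, the enzyme that copies methylation onto newly replicated DNA, carries that mark through cell division, whereas Dnmt3a and Dnmt3b set new marks. Peg3, Usp29, Snrpn, Ndn, Magel2, Mkrn3 and Peg12 are known as paternally expressed, Zim1 as maternally expressed, and Ube3a as maternally expressed in mature neurons and expressed from both copies in most other tissues.

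The study asked how the loss of single DNA methyltransferases alters cell types in early organogenesis. Each embryo was dissociated singly at E8.5 (embryonic day 8.5) and sequenced with 10x Genomics 3′ v3 chemistry, with 1 library per embryo and 18 libraries in all. Ectoplacental cone tissue served for genotyping, and how much of it was taken from each embryo is not given. Embryos came from natural matings of heterozygous mice on the 129S4/SvJae background, so the animals compared shared that background and differed in homozygous null alleles present in every cell. There were 7 wild-type (WT) embryos, 3 Dnmt1 KO embryos (Dnmt1 null) and 4 Dnmt3a KO embryos (Dnmt3a null), with no treatment. Dnmt3b KO (Dnmt3b null, likewise untreated) had 4 libraries labelled as embryos, of which libraries 1 and 2 are treated below as 1 sample.

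Of 162336 barcodes, 128881 had at least 1500 UMIs and 109962 were kept after filters on mitochondrial and ribosomal counts and on doublets, with 1366 to 12716 cells and 36592656 to 232869450 UMIs per library. Levels are given in CPM, UMIs of a gene per 1000000 UMIs of the kept cells of an embryo. Dnmt1 itself fell from 104 ± 10.7 CPM (SD, n = 7) in WT to 15.2 ± 0.427 CPM (n = 3) in Dnmt1 KO embryos, or -2.70 in log2 fold change (adjusted p = 8.9e-11, edgeR). Dnmt3a fell in Dnmt3a KO embryos (log2 fold change -1.68, adjusted p = 0.00273, edgeR), whereas Dnmt3b in Dnmt3b KO embryos gave +0.01 (adjusted p = 0.982), a 3′ count that checks nothing where the disrupted part lies upstream of the tag. Dnmt3b KO 1 and Dnmt3b KO 2 shared 12249 barcodes (86.5% and 79.3% of each), against at most 133 for any other pair, and were summed as 1 sample, so that n = 3 for Dnmt3b KO. By Y-linked counts 1 of 7 WT embryos and all Dnmt1 KO and Dnmt3a KO embryos were male. The authors counted 4 libraries (WT 1, Dnmt3b KO 11 and Dnmt3a KO 1 and 13) against a reference that joined the human and mouse genomes. Cells fell into 51 clusters, of which 39 were named after 21 classes by marker genes. A class name means cells like that type. Unnamed clusters held 15.6% to 50.8% of Dnmt1 KO and 18.3% to 25.4% of WT cells.

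In the mm10 annotation Zim1 lies on the minus strand of chromosome 7 at 6671269 to 6696450, Peg3 on the minus strand at 6703892 to 6730431, and Usp29 on the plus strand at 6730578 to 6967219. The Peg3 and Usp29 start sites were 164 bases apart in RefSeq and their promoter windows shared 263 bases. In the Snrpn domain the order was Ube3a (59228750 to 59311536, plus), Snrpn (59982495 to 60140219, minus), Ndn (62346569 to 62350262, plus), Magel2 (62377010 to 62381640, plus), Mkrn3 (62417593 to 62420139, minus) and Peg12 (62461871 to 62464510, minus), each protein-coding.

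The promoters below carry the genes on which the results turn: Peg3, whose window is shared with Usp29, Zim1 and Peg12, which were called in Dnmt1 KO embryos, and the Snrpn promoter that lies at the control region of its domain. Each runs 5′ to 3′ on the strand of its gene, from 250 bases before the RefSeq start site to 50 after it (build GRCm38.p6), with capitals marking CpG, the dinucleotide that is methylated. They lie at chr7:6730370-6730669 (Peg3), chr7:6696383-6696682 (Zim1), chr7:60005150-60005449 (Snrpn, the first of its 4 RefSeq promoters) and chr7:62464461-62464760 (Peg12).
Peg3: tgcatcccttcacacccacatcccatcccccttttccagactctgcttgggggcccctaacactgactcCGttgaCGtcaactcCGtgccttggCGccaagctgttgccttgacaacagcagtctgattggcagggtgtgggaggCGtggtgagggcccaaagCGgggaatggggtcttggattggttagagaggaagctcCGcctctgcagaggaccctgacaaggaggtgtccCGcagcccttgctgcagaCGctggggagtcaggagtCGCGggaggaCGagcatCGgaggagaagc
Zim1: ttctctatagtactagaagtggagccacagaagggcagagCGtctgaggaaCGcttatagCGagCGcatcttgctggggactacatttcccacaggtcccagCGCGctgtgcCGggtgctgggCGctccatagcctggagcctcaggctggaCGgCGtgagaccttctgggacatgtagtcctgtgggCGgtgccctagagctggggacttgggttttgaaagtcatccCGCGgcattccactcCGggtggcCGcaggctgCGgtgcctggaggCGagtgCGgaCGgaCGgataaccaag
Snrpn: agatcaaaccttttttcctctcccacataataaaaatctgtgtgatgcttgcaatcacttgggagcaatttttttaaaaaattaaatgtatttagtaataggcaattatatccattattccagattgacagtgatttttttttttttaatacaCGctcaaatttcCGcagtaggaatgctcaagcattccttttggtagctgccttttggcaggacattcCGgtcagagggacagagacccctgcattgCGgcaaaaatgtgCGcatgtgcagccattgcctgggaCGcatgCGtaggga
Peg12: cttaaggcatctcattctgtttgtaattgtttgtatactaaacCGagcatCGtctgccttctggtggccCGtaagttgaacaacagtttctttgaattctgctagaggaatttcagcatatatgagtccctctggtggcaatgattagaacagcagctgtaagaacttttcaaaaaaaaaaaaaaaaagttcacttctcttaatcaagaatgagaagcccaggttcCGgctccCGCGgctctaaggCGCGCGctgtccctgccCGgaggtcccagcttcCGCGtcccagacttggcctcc
All 9 genes had a RefSeq promoter. The windows held 13 CpG for Peg3, 17 for Usp29, 20 for Zim1, 12 for Peg12 and 7 for the printed Snrpn window, against a median of 7 over 32817 mouse promoters of the same length, while Ube3a held 29, Mkrn3 15, Ndn 11 and Magel2 10. The letters TGCCGC, the core of the motif bound by ZFP57, the zinc finger protein that keeps imprints methylated, occurred once each in the Zim1 and printed Snrpn windows on either strand, and in 11.6% of all promoters. The letters AAGATGGC (YY1) occurred once in Ube3a and in 2.74% of all promoters, and GCATGCGC (NRF1) once in Ndn and in 2.71%. These are matches of letters and no methylation was measured in these files.

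The first comparison asked how the 9 genes stood in Dnmt1 KO against WT embryos. Within the Peg3 domain, Peg3 rose and Zim1 fell. In whole embryo sums Peg3, a zinc finger protein linked to growth and maternal behaviour, went up 2.90-fold. Zim1, a zinc finger gene next to Peg3, went down 13.2-fold. Peg12 (also known as Frat3), a member of the Frat family that binds the kinase GSK3 and acts in Wnt signalling, fell 2.38-fold. The other 6 genes were not called. A gene was called throughout when edgeR's quasi-likelihood test gave it an adjusted p, over all genes, under 0.01 and it differed by 1 or more in log2 fold change. In all, 3 of 9 genes were called, 1 higher and 2 lower, against 14.1% of all genes tested (8.09% higher and 5.98% lower).

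Peg3 stood at 968, 819 and 968 CPM in the 3 Dnmt1 KO embryos. The 7 WT embryos ranged from 285 to 399 CPM around a median of 343. Every Dnmt1 KO embryo was above every WT embryo. In log2 fold change this is +1.54 (SE 0.10, adjusted p = 5.9e-09, edgeR). A whole embryo sum cannot tell a shift in cell shares from more RNA per cell. With the 4 classes that all embryos of both groups held averaged at the same weights, Peg3 gave +1.01 (limma). Within those classes it gave +0.80 to +1.48 (edgeR). How far cell shares enter the whole embryo value was not tested.

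Zim1 was counted 19, 40 and 13 times in the 3 Dnmt1 KO embryos, which gave 0.182, 0.304 and 0.167 CPM. The WT embryos had 129 to 707 UMIs and ranged from 2.32 to 3.64 CPM with a median of 3.15. The groups did not overlap. Zim1 thus stood at -3.72 in log2 fold change (SE 0.25, adjusted p = 7.97e-09, edgeR).

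Usp29, a ubiquitin-specific protease transcribed away from Peg3, stood at 27.5, 15.3 and 33.3 CPM in Dnmt1 KO embryos. In WT it ranged from 11.4 to 16.2 CPM with a median of 13.97. Dnmt1 KO 2 lay inside the WT range and the other 2 embryos above it. The log2 fold change was +0.94 (SE 0.20, adjusted p = 0.00134, edgeR), past the threshold on p but short of the fold required.

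Peg12 stood at 4.68, 2.46 and 5.30 CPM in Dnmt1 KO embryos. In WT it ranged from 7.95 to 12.6 CPM with a median of 10.5. All 3 Dnmt1 KO embryos were below all WT embryos, and the log2 fold change was -1.25 (SE 0.21, adjusted p = 0.000166, edgeR). The call was lost without Dnmt1 KO 2 (-0.99, just short of the fold required) and with the replicate number as a block (-1.15, adjusted p = 0.0218, edgeR). The block leaves WT 4 to 7 out of the comparison, since no other sample has their numbers. No overlap with WT was thus found for 1 gene above and 2 below, where 10.9% and 16% of all genes lay wholly above and below WT. In WT Peg12 was highest in forebrain and midbrain and in hindbrain and spinal cord, classes that together made up 0.157% to 0.327% of Dnmt1 KO cells against 8.93% to 19.7% in WT. With the 4 classes that all embryos of both groups held averaged at the same weights, the log2 fold change of Peg12 was -0.42 on the log2(CPM + 0.5) scale (adjusted p = 0.0303, limma). In a whole embryo sum, fewer cells of a type and less RNA per cell cannot be told apart.

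Snrpn encodes SmN, a core protein of the spliceosome. It stood at 86.9, 80.8 and 119 CPM in Dnmt1 KO embryos and at 53.8 to 103 CPM in WT, with a median of 69.5. Only Dnmt1 KO 3 lay above the WT range. The log2 fold change was +0.51 (SE 0.16, adjusted p = 0.0176, edgeR).

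The MAGE family genes Ndn and Magel2 were not called. Ndn, necdin, a protein that restrains growth and favours neuronal differentiation, stood at 36.2, 19.2 and 47.0 CPM against 40.6 to 57.4 in WT, and gave -0.50 in log2 fold change (SE 0.20, adjusted p = 0.0563, edgeR). Magel2, which acts with a ubiquitin ligase in endosomal sorting, stood at 2.30, 1.26 and 3.83 CPM against 2.47 to 3.77 in WT, and gave -0.24 in log2 fold change (SE 0.26, adjusted p = 0.502, edgeR). Dnmt1 KO 2 was the lowest of the 3 for both. The value of Ndn moved with single libraries, to -0.22 (adjusted p = 0.336) without Dnmt1 KO 2 and -0.82 (adjusted p = 0.00296) without Dnmt1 KO 3 in edgeR, and it was -0.30 without ExE ectoderm. Magel2 moved to +0.077 without Dnmt1 KO 2, a change of sign, and to -0.73 without Dnmt1 KO 3, and was called in neither.

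The ubiquitin ligase genes Mkrn3 and Ube3a were not called either. Mkrn3, a ring finger protein known for its part in the timing of puberty, stood at 2.65, 1.82 and 2.77 CPM against 2.22 to 3.53 in WT (log2 fold change -0.24, 95% interval -0.63 to 0.14). Ube3a, the E6-AP ligase, stood at 133, 131 and 139 CPM against 100.2 to 147 in WT, entirely within the WT range. Its log2 fold change was +0.11, with a 95% interval of -0.08 to 0.31.

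**Figure D1:**
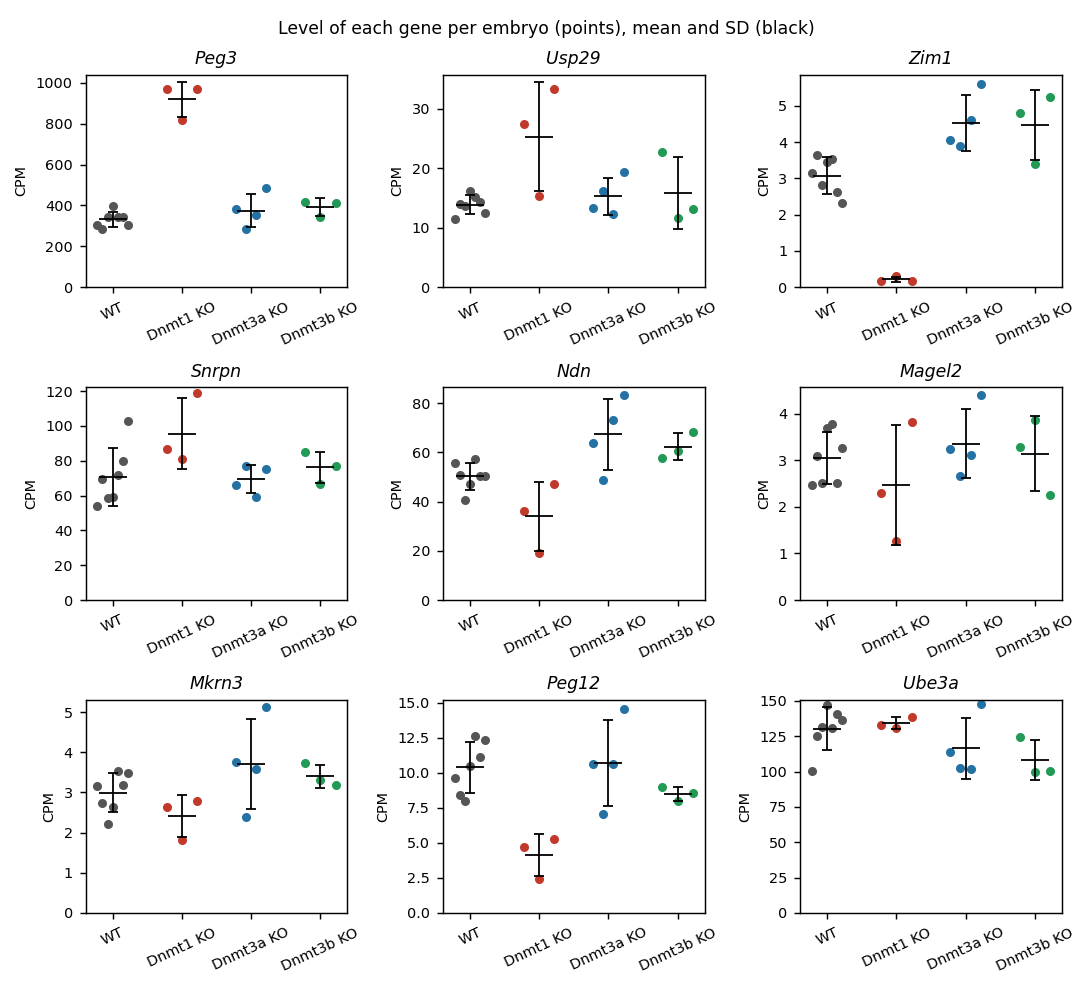
Level of each of the 9 genes in CPM (linear axis from 0) in every embryo, with Dnmt3b KO 1 and 2 summed; points are embryos and black bars the mean and SD (n = 7 for WT, 4 for Dnmt3a KO, and 3 each for Dnmt1 KO and Dnmt3b KO). The Dnmt1 KO embryos stand apart for Peg3 (819 to 968 CPM, above every WT embryo), Zim1 (0.167 to 0.304 CPM) and Peg12 (2.46 to 5.30 CPM).

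Female and male embryos were not balanced between Dnmt1 KO and WT. With the Y-linked share as a covariate Peg3 gave +1.58 and Zim1 -3.83, and both stayed called, whereas Usp29 gave +0.61 (adjusted p = 0.171, edgeR). Only WT 2 (male) and Dnmt3b KO 12 (female) differed in sex from the rest of their group. The covariate thus rests largely on those embryos and can hardly be parted from genotype. Markers of maternal decidua (4 of 5 detected, with Prl3c1 at 0, summed) stood at 1.57 to 3.57 CPM in Dnmt1 KO against 0.690 to 1.75 CPM in WT, and those of trophoblast giant cells (4 of 5, with Ctsq at 0) at 0.270 to 1.497 against 0 to 0.273 CPM. Mitochondrial counts took 4.11% to 4.49% in Dnmt1 KO, above all WT embryos (2.76% to 3.28%). The part of these in the results was not tested. Cells of the ExE ectoderm class (trophoblast, the lineage that forms the placenta) made up 4.63% to 30.8% of Dnmt1 KO and 0% to 1.77% of WT cells, and without them Peg3 gave +1.59, Zim1 -4.06 and Usp29 +1.12.

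The second comparison set the same 9 genes in Dnmt3a KO and Dnmt3b KO embryos beside WT. None of the 9 was called in either by edgeR or by DESeq2, where 0.208% and 1.74% of all genes were by edgeR. An unadjusted p under 0.05 (edgeR) was found for 2 of 9 genes in Dnmt3a KO, Zim1 and Ndn, against 9.63% of all genes. In Dnmt3b KO it was found for 2 of 9, Zim1 and Ube3a, against 17.7%. Counts this small are not read as a result about the 9 genes. Both comparisons used the same WT embryos.

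Zim1 stood at 4.05, 3.88, 4.595 and 5.59 CPM in Dnmt3a KO 1, 2, 13 and 14, all above the highest WT value of 3.64. By edgeR the log2 fold change was +0.54 (SE 0.17, adjusted p = 0.223). In Dnmt3b KO it stood at 4.79 (1 and 2 summed), 3.40 and 5.23 CPM, of which the second lay inside the WT range, and gave +0.50 in log2 fold change (adjusted p = 0.161, edgeR). Zim1 was thus the 1 gene that lay wholly above WT in Dnmt3a KO, where 2.01% of all genes did. In Dnmt3a KO it gave +0.15 with the replicate number as a block, which leaves only Dnmt3a KO 1 and 2 in the comparison. It gave +0.44 with the Y-linked share as a covariate, since the sexes were not balanced there either, and +0.29 at the same class weights. At those weights Dnmt3b KO gave +0.06. Dnmt3a KO 14, the highest for Zim1, had a mitochondrial share of 4.57%, against 2.10% to 2.66% in the other Dnmt3a KO embryos, and without it Zim1 gave +0.49.

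Ndn stood at 63.9, 48.99, 73.1 and 83.2 CPM in Dnmt3a KO, 1 of them inside the WT range, and gave +0.40 in log2 fold change (adjusted p = 0.463, edgeR), or +0.35 without Dnmt3a KO 14, the highest. In Dnmt3b KO it stood at 57.8, 60.7 and 68.4 CPM, all above the highest WT value of 57.4, as 5.65% of all genes did. Its log2 fold change there was +0.28 (95% interval -0.12 to 0.67). With the replicate number as a block, which leaves only the summed sample of Dnmt3b KO 1 and 2, it was -0.067. In Dnmt3b KO the decidua markers summed to 1.34 to 5.58 CPM and those of giant cells to 0 to 1.66 CPM, ranges that overlapped those of WT, and their part in the Dnmt3b KO values was not tested.

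Ube3a stood at 125, 99.4 and 100.3 CPM in Dnmt3b KO, and gave -0.30 in log2 fold change (SE 0.09, adjusted p = 0.0970, edgeR). With the replicate number as a block, which leaves only the summed sample of Dnmt3b KO 1 and 2, it gave +0.0060, on the other side of 0. In Dnmt3a KO the log2 fold change was -0.18 (95% interval -0.36 to 0.0020). Peg3 gave +0.16 (95% interval -0.04 to 0.36) in Dnmt3a KO and +0.21 (-0.0050 to 0.43) in Dnmt3b KO. The other genes lay between -0.31 and +0.29 in log2 fold change across both comparisons.

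**Figure D2:**
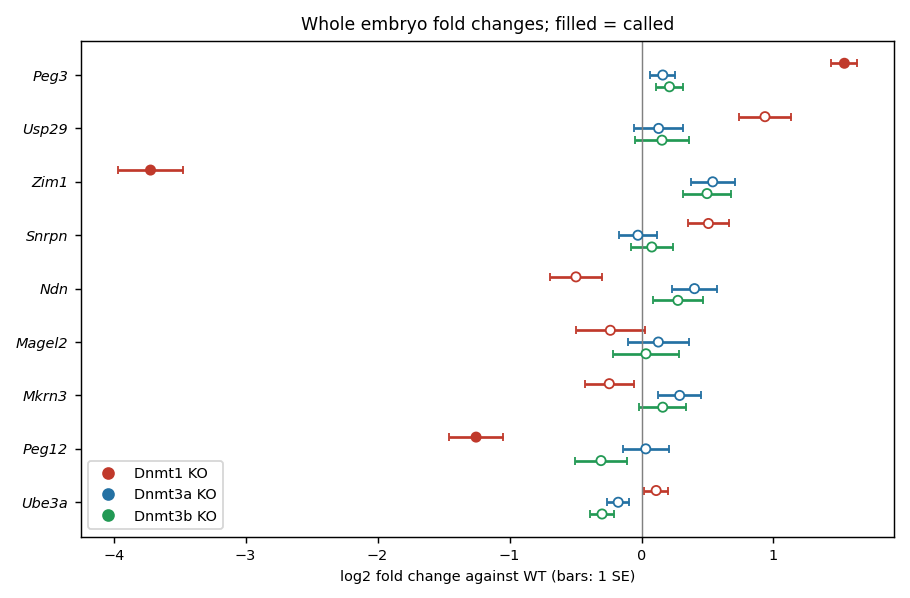
Log2 fold change of each gene in whole embryos of the 3 KO groups against WT, with bars of 1 SE; filled points passed the call. Zim1 (-3.72), Peg3 (+1.54) and Peg12 (-1.25) are filled in Dnmt1 KO and no point is filled in Dnmt3a KO or Dnmt3b KO.

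The difference between lines was tested directly. Against Dnmt3a KO embryos, Dnmt1 KO embryos had Peg3 higher (+1.38) and Zim1 (-4.26) and Peg12 (-1.29) lower, and all 3 were called (13.3% of all genes). The call of Peg12 was lost with the replicate number as a block (-1.17, adjusted p = 0.0488, edgeR) and at the same class weights (-0.50, adjusted p = 0.0676, limma). Against Dnmt3b KO embryos, Peg3 (+1.33) and Zim1 (-4.22) were called (8.41% of all genes), and Peg12 gave -0.95 (SE 0.23, adjusted p = 0.00637, edgeR). With the block, which leaves only the summed sample of Dnmt3b KO 1 and 2, Peg3 gave +1.32 and was not called. Ndn gave -0.90 (adjusted p = 0.00415) against Dnmt3a KO and -0.77 (adjusted p = 0.0181) against Dnmt3b KO in the edgeR fits. Between Dnmt3b KO and Dnmt3a KO embryos none of the 9 was called (0.224% of all genes), and no unadjusted p was under 0.05 (6.92% of all genes had one). These comparisons share their Dnmt1 KO embryos.

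Other genes of both domains and their neighbours were read from lists. In the Peg3 domain Zim3, annotated as antisense and overlapping the 3′ end of Usp29, had 1 to 15 UMIs per WT embryo and 6 to 27 per Dnmt1 KO embryo, and was called higher (log2 fold change +1.95, SE 0.50, adjusted p = 0.00547, edgeR). The study's methods name default settings of Cell Ranger, which count reads on the sense strand of a gene. Reads shared between Peg12 and its Frat paralogues or Snrpn and Snrpb may not have been counted in full. In the Snrpn domain Atp10a gave +0.15, Gabra5 -0.21 and Gabrg3 -0.35, none of them called, and Snurf, which shares its strand and position with Snrpn, had 0 UMIs. None of 8 non-imprinted genes listed as neighbours was called, where 14.1% of all genes were. Not all of them adjoin the domains: Zscan22 starts at 12897815, far beyond Usp29, and Herc2 ends at 56231800, well before Ube3a at 59228750. Nipa1 (-0.84, adjusted p = 0.00456) and Nipa2 (+0.41, adjusted p = 0.000661), magnesium transporter genes, passed the threshold on p in edgeR but not on fold, and the rest lay between -0.17 and +0.36. Zim2, Zfp264, Peg3os and Snhg14 were not analysed here.

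**Figure D3:**
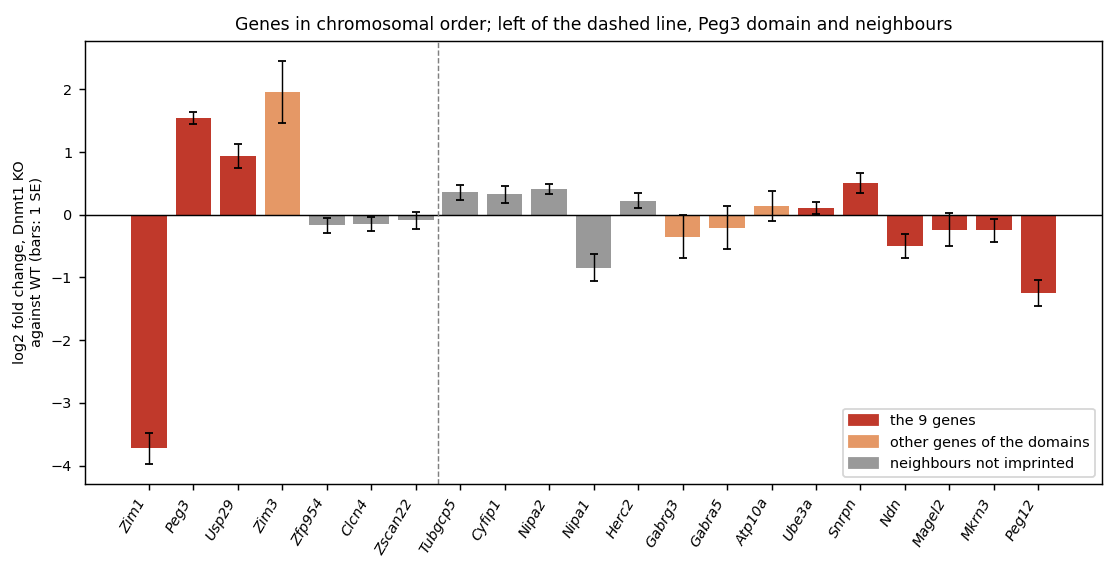
Log2 fold change in Dnmt1 KO against WT whole embryos (bars, with 1 SE) for genes of both domains and their neighbours in chromosomal order, not to scale. Opposite bars stand side by side at Zim1 (-3.72) and Peg3 (+1.54), and the neighbours in grey lie between -0.84 and +0.41.

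Of 6 genes that write or keep imprints, Dnmt1 was called and the others were not. Zfp57 gave -0.40 (adjusted p = 0.0169), Uhrf1, which brings Dnmt1 to replicated DNA, -0.30 (adjusted p = 0.0293), Trim28 -0.11, Zfp445 +0.03 and Dppa3 +0.94 (adjusted p = 0.247) in the edgeR fit. In Dnmt3a KO and Dnmt3b KO no gene of these lists was called, and the same edgeR fit gave Zim3 +2.13 (adjusted p = 0.0125) in Dnmt3b KO, on 26 to 73 UMIs per sample.

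Cell classes in WT differed widely in the Peg3 domain. Peg3 was highest in ExE mesoderm (996 ± 158 CPM, n = 7), then gut (832 ± 67.7, n = 7), pharyngeal mesoderm (739 ± 108, n = 6) and allantois (716 ± 46.1, n = 6), and lowest in immune cells (20.4 ± 6.46, n = 6). Neural classes were low, with 78.5 ± 12.8 CPM in hindbrain and spinal cord and 56.7 ± 8.57 in forebrain and midbrain (n = 7 each). The highest class stood 48.8 times above the lowest. Free RNA in the droplets was not removed, so low levels may include transcripts of other cells.

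Usp29 ran from 47.5 CPM in pharyngeal mesoderm to 1.28 in erythroid cells. Zim1 ran from 16.2 ± 1.60 CPM in ExE mesoderm (n = 7) to 0.0981 in immune cells, where 2 UMIs were counted in 323 cells. Across the 18 classes with at least 3 WT embryos, the gene whose levels were most like those of Peg3 was Usp29 (Pearson r = 0.920 of log2(mean CPM + 1), among 10530 genes), followed by Afap1 (0.905) and Igf2r (0.903), with Zim1 in place 15 (0.883). These points share libraries and are a description only.

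The Snrpn domain was not alike in its parts. Snrpn (194 ± 39.2 CPM) and Ndn (112 ± 17.0 CPM) were also highest in ExE mesoderm, and both were lowest in ExE endoderm (2.92 ± 1.29 and 2.42 ± 1.39 CPM, n = 7 each). Magel2, Mkrn3 and Peg12 were highest in forebrain and midbrain, at 7.29, 8.99 and 33.3 CPM, and lowest in erythroid cells (0.192 and 0.662 CPM) or, for Peg12, ExE endoderm (0.318 CPM). Ube3a varied least, from 183 CPM in cardiomyocytes to 83.1 in ExE endoderm. The genes most like Snrpn were Myh10 (r = 0.913), Lsm14a (0.902) and Khdrbs3 (0.899), and Ndn stood in place 164 (0.775).

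Neighbouring classes in these orders were compared within embryos by exact two-sided sign-flip permutation tests. Of 153 neighbouring pairs, 22 gave an unadjusted p under 0.05 and 0 an adjusted one. The smallest p that 7 embryos allow is 0.0156, and fewer embryos allow only larger ones. A single pair thus could not pass an adjustment over this many, and the outcome does not show that neighbouring classes stood at like levels. For Peg3 5 of 17 steps gave an unadjusted p under 0.05. The step from presomitic mesoderm (121 CPM) to hindbrain and spinal cord (78.5 CPM) and that from forebrain and midbrain to erythroid cells (22.6 CPM) kept the same direction in 7 of 7 embryos (exact permutation p = 0.0156 each). Cardiomyocytes (462 CPM) and surface ectoderm (458 CPM) did not differ beyond their spread, and the first was higher in 3 of 7 embryos.

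**Figure D4:**
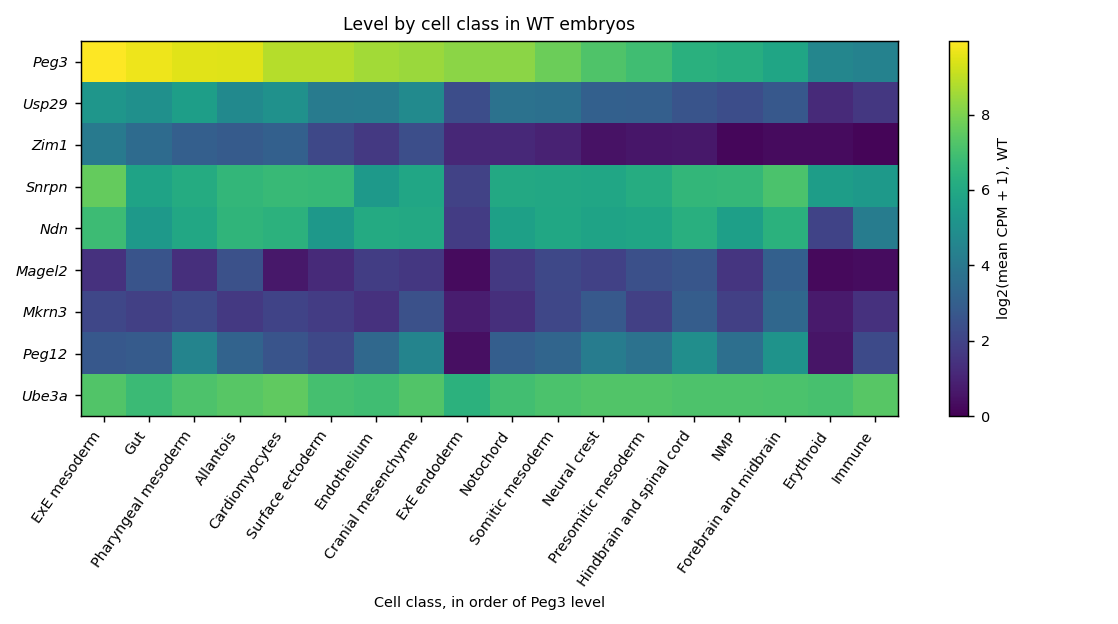
Mean level of each gene (rows) in 18 cell classes of WT embryos (columns, in the order of Peg3), coloured by log2(mean CPM + 1) over 3 to 7 embryos. Peg3 falls from 996 CPM in ExE mesoderm to 20.4 CPM in immune cells, while Peg12 peaks in forebrain and midbrain at 33.3 CPM and Ube3a stays between 83.1 and 183 CPM.

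Within classes, the opposite changes of Peg3 and Zim1 were seen in all 4 classes that had enough cells of Dnmt1 KO embryos for a test: endothelium, ExE endoderm, ExE mesoderm and gut. Of 36 gene and class pairs, 8 were called, 4 higher and 4 lower, against 7.78% of all pairs tested (4.41% higher and 3.37% lower). Zim1 gave the 4 lower calls. The higher calls were Peg3 in endothelium and ExE mesoderm, Usp29 in ExE mesoderm and Magel2 in ExE mesoderm. In each class a single cluster came almost wholly from Dnmt1 KO embryos: cluster 48 of endothelium (94.4% of its cells), cluster 10 of ExE endoderm (99.3%), cluster 19 of ExE mesoderm (97.2%) and cluster 49 of gut (96.9%). Of the Dnmt1 KO cells that were clustered in a class, that cluster held 88.6% in ExE mesoderm, 73.2% in ExE endoderm and 80.8% in gut. In endothelium it held 27.8%, and the other Dnmt1 KO cells lay in clusters made up mostly of cells of the other groups.

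Peg3 in ExE mesoderm stood at 3014, 2608 and 2230.1 CPM in the 3 Dnmt1 KO embryos and at 745 to 1204 CPM in WT, with no overlap and with +1.48 in log2 fold change (SE 0.11, adjusted p = 1.56e-08, edgeR). In endothelium it stood at 803, 783 and 585 CPM against 276 to 475, again without overlap, with +1.01 (SE 0.13, adjusted p = 1.14e-05, edgeR). Gut (1322, 1653 and 1409 against 756 to 940 CPM) and ExE endoderm (548, 503 and 510 against 216 to 365 CPM) also separated. The share of all genes that separate in this way within a class was not counted, so how common it is remains unknown. The log2 fold changes of Peg3 in gut and ExE endoderm, +0.92 (SE 0.13) and +0.80 (SE 0.15), passed the threshold on p (adjusted p = 3.21e-05 and 0.00109, edgeR) but not on fold. Peg3 in endothelium dropped just under the fold required when WT 1, WT 2, WT 6, Dnmt1 KO 1 or Dnmt1 KO 2 was left out, with values from +0.96 to +0.99.

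Zim1 was nearly absent from these classes in Dnmt1 KO embryos. In ExE mesoderm 9, 9 and 3 UMIs were counted in 268, 336 and 254 cells, which gave 0.630, 0.787 and 0.233 CPM against 14.04 to 18.1 CPM in WT. The log2 fold change there was -4.79 (SE 0.23, adjusted p = 3.5e-11, edgeR). Over 28 alternatives it ranged from -7.49 to -4.47, with the call kept in each. In ExE endoderm 5, 3 and 0 UMIs were counted, which gave -3.54 in log2 fold change (SE 0.63, adjusted p = 0.000495, edgeR). With the Y-linked covariate that call was lost (-3.49, adjusted p = 0.0168, edgeR).

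In gut each Dnmt1 KO embryo had 1 Zim1 UMI, in 30 to 42 cells, against 6.16 to 12.4 CPM in WT. Pooled over embryos WT stood 18.8 times above Dnmt1 KO, with a 95% exact counting interval of 6.42 to 91.7 (edgeR log2 fold change -4.12, adjusted p = 5.74e-06). In endothelium 0, 1 and 0 UMIs were counted and the pooled ratio was 19.8 with an interval of 3.47 to 792 (edgeR log2 fold change -4.06, adjusted p = 0.000745). Without Dnmt1 KO 1 the log2 fold change was -3.43, and without Dnmt1 KO 2, which held the 1 UMI, no Zim1 UMI was left in the group, and both fits kept the call. With the replicate number as a block that call was lost (-3.80, adjusted p = 0.0121, edgeR). These intervals cover counting error only.

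ExE ectoderm and the class named epiblast from its markers, whose leading gene was Pou5f1, were common in Dnmt1 KO embryos only, so no test was possible there. The study reported Pou5f1, Utf1, Slc7a3, Fgf5 and Pim2, all markers of the epiblast class, as higher in Dnmt1 KO embryos across most cell types. The name of that class may thus rest on that rise, and which cell type it holds was not tested. In ExE ectoderm Peg3 stood at 684, 731 and 735 CPM in Dnmt1 KO and at 239 CPM in the 1 WT embryo with enough cells, and Zim1 at 0.271, 0.450 and 0.651 CPM against 1.33 CPM (4 UMIs). In the epiblast class no Zim1 UMI was found in 816 Dnmt1 KO cells, which allows up to 0.0692 CPM over the group (3 UMIs), while Peg3 stood at 400.4, 536 and 385 CPM and Snrpn at 176 ± 12.4 CPM (n = 3).

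Usp29 went with Peg3 in ExE mesoderm, at 103, 80.6 and 79.1 CPM against 26.7 to 49.8 CPM in WT (log2 fold change +1.36, SE 0.15, adjusted p = 1.96e-06, edgeR). In ExE endoderm it gave +0.24 (SE 0.31). Magel2 in ExE mesoderm stood at 4.97, 4.37 and 4.20 CPM (71, 50 and 54 UMIs) against 1.00 to 2.47 CPM in WT, with +1.501 in log2 fold change (SE 0.24, adjusted p = 7.76e-05, edgeR). With the Y-linked covariate this became +1.12 (adjusted p = 0.0266, edgeR). In the other classes Magel2 was not called and differed in sign, at +0.36 in endothelium, -0.87 in gut and -1.40 in ExE endoderm.

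The remaining genes gave no call in these classes. Snrpn rose past the threshold on p in endothelium (58.9 to 72.8 against 30.7 to 51.0 CPM, log2 fold change +0.75, adjusted p = 0.00155, edgeR) and gave +0.32 in ExE mesoderm, +0.06 in gut and -0.21 in ExE endoderm. Mkrn3 was positive in 3 classes, up to +0.81 in endothelium (adjusted p = 0.106, edgeR), and gave -0.12 in ExE endoderm. Ube3a was positive in 4 of 4 classes, from +0.21 in ExE mesoderm to +0.54 in endothelium, with an adjusted p under 0.05 in 3. Peg12 and Ndn were negative in 4 of 4, from -0.22 to -1.11 and from -0.04 to -0.75, and no adjusted p was under 0.23. The share of all genes with the same sign in all 4 classes was not counted. The Peg12 value in these classes was nearer 0 than in whole embryos in 4 of 4, a difference that was not tested.

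**Figure D5:**
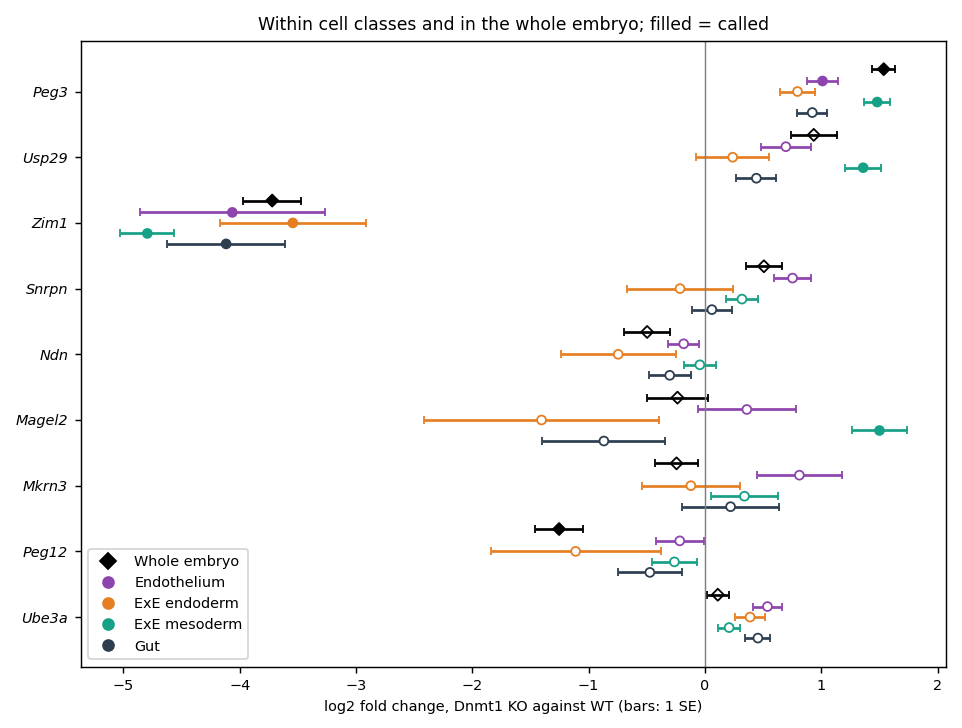
Log2 fold change of each gene in Dnmt1 KO against WT, in the whole embryo (diamonds) and within 4 cell classes (circles), with bars of 1 SE; filled symbols passed the call. Zim1 lies between -4.79 and -3.54 in every class and Peg3 between +0.80 and +1.48, whereas Peg12 is filled in the whole embryo and open in every class.

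Whether a change in a class differed from that in the rest of the same embryos was tested by exact two-sided permutation over embryos, on log2(CPM + 1). None of 333 tests over the 3 KO groups had an adjusted p under 0.05 (lowest 0.168). At an unadjusted p under 0.05 (exact permutation) stood 19 of 36 tests in Dnmt1 KO, 5 of 153 in Dnmt3a KO and 15 of 144 in Dnmt3b KO. The same tests were not run on all genes, so how common such values are remains unknown. Tests on the same embryos are not independent. With 3 against 7 embryos the smallest p possible is 0.00833, so a single test could not pass an adjustment over this many, and the outcome does not show that the changes were of like size in different classes.

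In Dnmt3a KO 140 pairs in 17 classes and in Dnmt3b KO 132 pairs in 16 classes were tested, and none was called, against 0.0912% and 0.624% of all pairs. At an unadjusted p under 0.05 (edgeR) stood 28 and 23 pairs, against 10.2% and 13.9% of all pairs. Ndn was positive in 17 of 17 classes of Dnmt3a KO (median log2 fold change +0.35), and in Dnmt3b KO it was so in 16 of 16 (+0.20). Ube3a was negative in 17 of 17 (median -0.17) and in 16 of 16 (-0.28), and Zim1 was positive in 12 of 12 tested classes for Dnmt3a KO (+0.48) and 8 of 12 for Dnmt3b KO (+0.16). Classes of 1 embryo share its library, and both comparisons share their WT embryos, so these counts are not independent. The share of all genes that keep 1 sign in every class was not counted, so how common this is remains unknown.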

How the data were processed

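Libraries were prepared from single E8.5 embryos and sequenced by the authors, who deposited raw UMI counts per gene and barcode made with Cell Ranger on mm10 (per the file headers 5.0.0 for Dnmt3b KO 12 and 3.1.0 for the others). Groups followed the labels. Barcodes with at least 1500 mouse UMIs, at most 30% mitochondrial and 35% ribosomal counts were kept, and simulated-doublet scores removed 0.8% per 1000 cells. Clusters (Leiden, resolution 2) were named by marker genes at a score of at least 0.6 that led the next class by 0.3, thresholds set after the scores were seen. Counts were summed per embryo, and per class with at least 25 cells, and tested by quasi-likelihood in edgeR (4.0.16, under R 4.3.3) with all 4 groups in 1 fit, with its low count filter, TMM and Benjamini-Hochberg adjustment. DESeq2 1.42.0 and, for class levels at the same weights, limma 3.58.1 were alternatives. Calls required 1 or more in log2 fold change beside an adjusted p under 0.01. Permutation tests went through every arrangement in Python 3.11.15 with numpy 2.4.6. Scripts were tested on simulated data. Genes named were the 9 genes, the tested genes of the domain, neighbour and imprint upkeep lists (1 item of these is not reported here), and for Peg3 and Snrpn the 3 most alike genes reaching 10 CPM. The genes and lists were chosen with earlier results of these data known. WT embryos came from heterozygous matings as the KO embryos did, but which WT library goes with which KO line is not given in the sources used here.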

Additional observations from a re-analysis of the deposited data

How the results depend on the processing

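Peg3 and Zim1 stayed called in Dnmt1 KO against WT under all 32 alternatives run on whole embryos, from +1.01 to +1.60 and from -4.08 to -3.01. The values nearest 0 came from the same class weights over 4 classes, on the log2(CPM + 0.5) scale. Zim1 stood at 0.0889 to 0.544 CPM in those classes of Dnmt1 KO embryos (pooled), so the added 0.5 CPM draws its value toward 0. Peg12 lost its call under those weights (-0.42) and without Dnmt1 KO 2 (-0.99), and Usp29 gained one without Dnmt1 KO 2 (+1.19) or without ExE ectoderm (+1.12). With an adjusted p under 0.05 and no minimum fold, 5 of the 9 genes were called against WT (36.6% of all genes), 8 against Dnmt3a KO (35.6%) and 6 against Dnmt3b KO (29.1%), and 15 class pairs in Dnmt1 KO (28.5% of all pairs). Thinned to the smallest sample, 5 class pairs were called (5.42% of all pairs). Leaving out single libraries, the genes called numbered 3 in Dnmt1 KO against WT in every case (with Usp29 in place of Peg12 without Dnmt1 KO 2), 3 to 4 against Dnmt3a KO and 2 to 4 against Dnmt3b KO (4 without Dnmt1 KO 3, which added Ndn and Peg12), 7 to 8 class pairs, and 0 in the other comparisons. In the same fits 9.76% to 16%, 8.97% to 14.8% and 4.5% to 10.8% of all genes and 5.75% to 8.15% of all pairs were called. Without Dnmt1 KO 1 or 2, without WT 1, 2 or 6, and with no low count filter (+0.97), Peg3 in endothelium lost its call.

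Whether replicate numbers pair the samples is not given. Deviations of same-numbered KO and WT embryos correlated at 0.13, 0.03 and -0.25 (Dnmt1 KO), 0.19 and 0.18 (Dnmt3a KO) and -0.19 (Dnmt3b KO). Differently numbered embryos were not compared, so these values do not settle it. A block by number drops every sample whose number no other sample has, such as WT 4 to 7. In whole embryos Dnmt3a KO then rests on samples 1 and 2, and Dnmt3b KO on its summed sample alone. With this block, 2 genes were called in Dnmt1 KO against WT (Peg3 +1.54 and Zim1 -3.90, against 5.75% of all genes). Against Dnmt3a KO 2 genes were called (2.15% of all genes), and 7 class pairs were called against WT (7.36% of all pairs). The block gave Snrpn +0.27 in Dnmt3a KO, Ndn -0.067 and Ube3a +0.0060 in Dnmt3b KO, and, for Dnmt3b KO against Dnmt3a KO, Zim1 +0.28 and Ube3a +0.13, which changed sign.

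The other changes of sign were of values that were not called. With the Y-linked covariate they were Ube3a -0.054 in Dnmt1 KO, Usp29 -0.17 and Magel2 -0.30 in Dnmt3a KO, Usp29 -0.042 and Magel2 -0.25 in Dnmt3b KO, and Zim1 0.0035 and Magel2 +0.046 between Dnmt3b KO and Dnmt3a KO. With the reference covariate they were Snrpn +0.053 in Dnmt3a KO and Usp29 -0.037 between Dnmt3b KO and Dnmt3a KO. With the same class weights they were Mkrn3 +0.20 against WT, +0.10 against Dnmt3a KO and +0.014 against Dnmt3b KO in Dnmt1 KO, Peg3 -0.094 and Usp29 -0.081 in Dnmt3b KO, and Peg3 -0.13 and Usp29 -0.20 between Dnmt3b KO and Dnmt3a KO. With Dnmt3b KO 1 and 2 left out, chosen after seeing the data, Usp29 gave -0.17 in Dnmt3b KO and -0.30 against Dnmt3a KO. With Dnmt3b KO 11 and 12 left out, Zim1 gave 0.0023 and Ube3a +0.023 against Dnmt3a KO. Thinning gave Snrpn 0.0078 in Dnmt3a KO, and only the 1500 UMI minimum gave Usp29 -0.031 between Dnmt3b KO and Dnmt3a KO. Without single libraries the ranges that cross 0 were -0.73 to 0.077 (Magel2, Dnmt1 KO), -0.11 to 0.10 (Snrpn, Dnmt3a KO), -0.075 to 0.17 (Peg12, Dnmt3a KO), -0.080 to 0.20 (Snrpn) and -0.18 to 0.24 (Magel2) in Dnmt3b KO, -0.77 to 0.044 (Magel2, Dnmt1 KO against Dnmt3b KO), and, for Dnmt3b KO against Dnmt3a KO, -0.033 to 0.13 (Peg3), -0.10 to 0.16 (Usp29), -0.15 to 0.069 (Zim1), -0.052 to 0.23 (Snrpn) and -0.34 to 0.11 (Magel2). The cause of these changes was not tested. In depth, Zim1 rested on 1 UMI in endothelium and 3 in gut of Dnmt1 KO embryos.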

Other observations

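Other imprinted genes outside both domains were read from lists in Dnmt1 KO against WT whole embryos. Of 15 paternally expressed genes tested, 3 were called higher (Peg10, Sfmbt2 and Zrsr1, with log2 fold changes of +2.10, +2.41 and +1.23) and 3 lower (Dlk1 -2.86, Igf2 -3.20 and Zdbf2 -2.14), with a median of +0.45 against +0.01 over all genes. Of 11 maternally expressed genes, 2 were called higher (H19 +1.61 and Mirg +1.02) and 5 lower (Grb10 -6.44, Cdkn1c -4.96, Kcnq1 -3.07, Igf2r -1.80 and Slc22a18 -1.18), with a median of -0.77. These genes were named after their values were seen, and all calls are by edgeR at the thresholds above. Against 14.1% of all genes called, neither list was tested as a set.

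Frat1 and Frat2, paralogues of Peg12 that also bind GSK3, were called lower in Dnmt1 KO embryos (log2 fold changes -1.13 and -1.12). These are whole embryo sums, in which cell shares and RNA per cell cannot be told apart. Snrpb, the paralogue of Snrpn, gave -0.30 (adjusted p = 0.0243, edgeR). Of 10 housekeeping genes none was called, where 14.1% of all genes were. In Dnmt3a KO and Dnmt3b KO no gene of these lists was called.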
